A study of Mus musculus with 8 samples.

Results

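Integrins and laminins were examined in RNA-seq of kidney tissue from diabetic mice treated with rFGF4 or left as the db/db model group. The genes were taken by symbol alone: every row of the gene table named as an integrin alpha subunit, an integrin beta subunit or a laminin chain. This gave 37 of 55401 genes, comprising 18 alpha subunits, 8 beta subunits and 11 laminin chains. Kidneys of 8 mice were sequenced, with 4 mice in the rFGF4 group (numbered 1, 2, 3 and 5) and 4 in the db/db group (numbered 2, 3, 4 and 5), and no non-diabetic mouse was part of the series. The labels give both groups as db/db mice, which lack a working leptin receptor and become obese and diabetic, and the methods describe such animals as males of the strain C57BLKS/J-lepr db/lepr db, bought at 8 to 10 weeks of age. The text of the study places the sequenced kidneys in mice made diabetic with streptozotocin (STZ), and nothing in the files decides between the models. The agent rFGF4 is a recombinant form of fibroblast growth factor 4, altered so that it no longer drives cell division. Diabetic mice received it by intraperitoneal injection of 1 mg/kg on alternate days over 8 weeks, against PBS as vehicle, although no dose is stated for the sequenced animals in particular. Libraries were made from poly(A) RNA of kidney tissue, so each value averages over all cell types of the kidney, and fewer cells of a type cannot be told apart from less RNA per cell.

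Integrins are cell surface receptors made of an alpha and a beta subunit, which bind matrix proteins outside the cell and, through talin and kindlin, the actin skeleton inside it. Laminins are heterotrimers of an alpha, a beta and a gamma chain and form the sheet on which basement membranes assemble. In the glomerulus the mature laminin holds the alpha5, beta2 and gamma1 chains, podocytes grip it with the integrin alpha3beta1, and loss of LAMB2 or ITGA3 in people leads to nephrotic disease.

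The starts of 4 genes are shown here because they stand for both ends of the pattern described below. Itga3 and Itgb1 encode the podocyte laminin receptor and were among the most abundant transcripts, whereas Itgam and Itgax encode leukocyte subunits, which had the widest ranges between mice of the tested integrins and laminins. Each line gives the 120 bases before the transcription start from RefSeq (GRCm38.p6), read along the gene's own strand, at chr11:95076715-95076834 (minus strand), chr8:128685534-128685653 (plus strand), chr7:128062520-128062639 (plus strand) and chr7:128129430-128129549 (plus strand). GENCODE starts Itga3 further upstream, so most of its stretch lies within the locus given below, and the last bases of the Itgax stretch lie within its GENCODE locus too. Capitals mark GAGGAA, the core bound by Ets factors such as PU.1, and GGGCGG, the GC box bound by Sp factors, on either strand.
Itga3: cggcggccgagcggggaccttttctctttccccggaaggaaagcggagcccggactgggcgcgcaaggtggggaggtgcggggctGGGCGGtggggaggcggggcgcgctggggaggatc
Itgb1: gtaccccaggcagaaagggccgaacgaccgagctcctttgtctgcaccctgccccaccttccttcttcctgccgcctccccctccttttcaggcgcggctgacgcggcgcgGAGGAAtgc
Itgam: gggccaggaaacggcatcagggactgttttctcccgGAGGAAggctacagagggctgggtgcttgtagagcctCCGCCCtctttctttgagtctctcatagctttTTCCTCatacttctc
Itgax: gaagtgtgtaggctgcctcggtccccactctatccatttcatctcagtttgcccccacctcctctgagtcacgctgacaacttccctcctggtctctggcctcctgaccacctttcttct

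Promoters of 23 of the 37 genes were in the RefSeq table. Over the 250 bases before the start, GAGGAA was found in 11 of these 23 (47.8%) and in 23.3% of 32841 promoters in the table, and GGGCGG in 8 of 23 (34.8%) against 32.7%. The shown stretch of Itgam holds 2 copies of GAGGAA and 1 of GGGCGG, that of Itgb1 holds 1 GAGGAA, that of Itga3 holds 1 GGGCGG, and that of Itgax holds neither. Neither motif contains the other, and a match describes the letters only.

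The kidneys expressed a clear order of integrin and laminin transcripts, led by subunits of broadly expressed receptors. FPKM, a count of fragments scaled to transcript length and to the size of the library, allows levels to be set side by side per length. By the mean FPKM over 8 mice, Itgb1 was highest at 58.9, followed by Itgb5 at 37.7, Lamb1 at 16.7, Lama5 at 15.5, Itga3 at 15.0 and Lamb2 at 11.2. The ranges over mice of Lamb1, Lama5 and Itga3 overlapped throughout, so the order among these 3 is within their spread. At the other end Lama4, Itgae, Itga10 and Itga11 had means of 0.413, 0.401, 0.255 and 0.080 FPKM, and Itgad was listed at the floor value of 0.0001 FPKM in 7 of 8 mice. These 5 genes did not reach 0.5 FPKM in 4 mice and were not tested, which left 32.

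**Figure D1:**
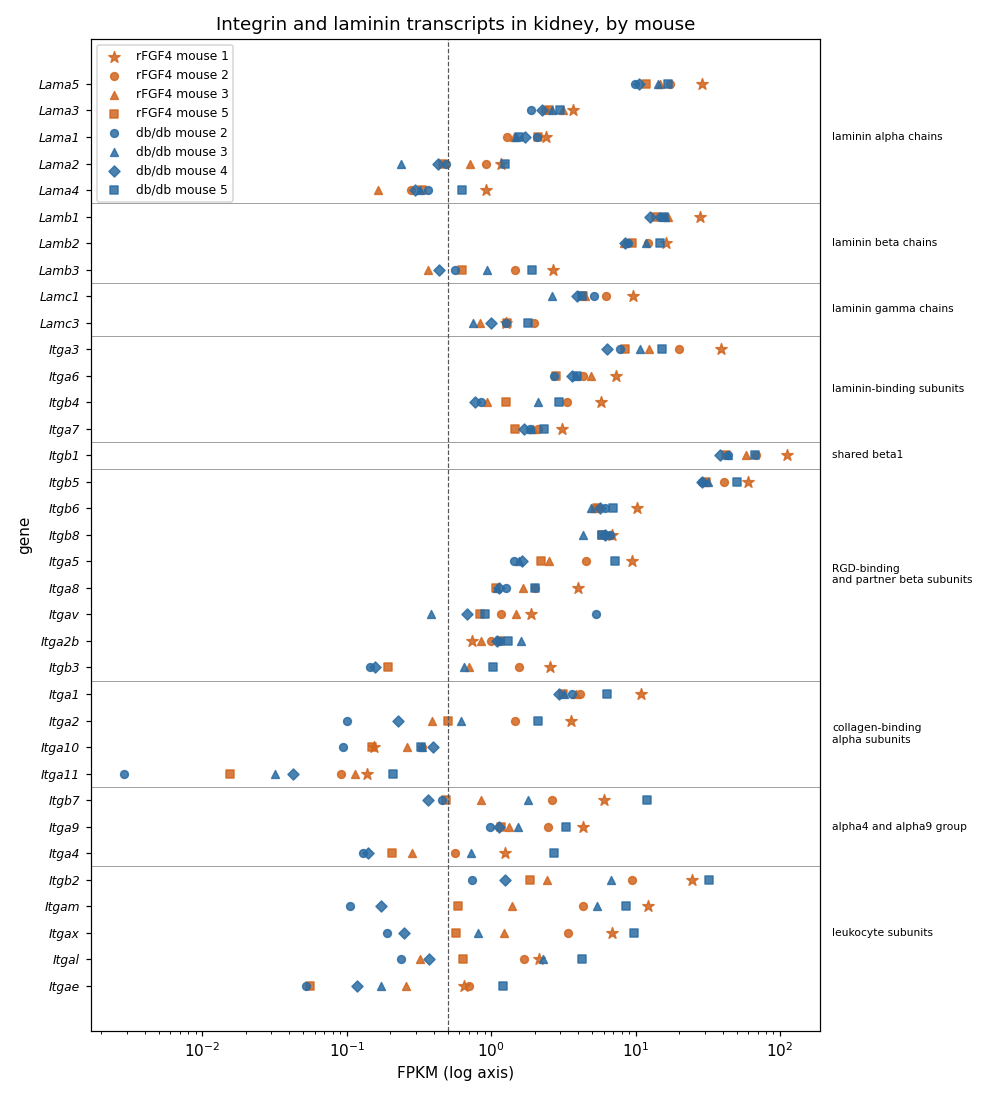
FPKM (log axis) of 35 integrin and laminin genes in each of 8 mice, grouped by role, with rFGF4 mice in orange, db/db mice in blue and 1 symbol per mouse number; the dashed line marks 0.5 FPKM and Itgad, at the floor in 7 of 8 mice, is left out. The star of rFGF4 mouse 1 lies at the right end of most rows, and of the tested genes Itgam and Itgax have the widest rows.

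No integrin or laminin gene differed between rFGF4 and db/db kidneys by more than the spread between mice allowed to be called. With limma on log2(FPKM + 1), 0 of the 32 tested genes had an unadjusted p under 0.05, and 0 passed the threshold of the study, which asks for p under 0.05 before adjustment together with a 1.5-fold difference. Among all 15150 tested genes, 3.56% had such a p with a higher level under rFGF4 and 1.06% with a lower level, and 1.09% and 0.436% passed the threshold upwards and downwards. The groups overlapped for each of the 32 genes, against 2.66% of all tested genes that did not overlap with rFGF4 above and 0.667% with rFGF4 below. Of the 15150 tested genes, limma gave 700 an unadjusted p under 0.05 and 0 an adjusted p under 0.05, and the adjusted p of the integrins and laminins ran from 0.918 to 0.999. The smallest two-sided exact permutation p of any of them was 0.0857, where 4 mice against 4 allow 0.0286.

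Most estimates nevertheless lay on the same side. The log2 fold change of FPKM + 1 was above 0, that is higher under rFGF4, for 28 of 32 genes (87.5%) and for 67.1% of all tested genes, with a median of 0.27 against 0.086. The 4 genes below 0 were Itga2b, Itga4, Itgal and Itgb7. The median standard error of a fold change was 0.32 for these genes and 0.19 over all tested genes, and the 95% interval included 0 for all 32. The intervals reached between 0.28 and 2.39 to either side of the estimate, so differences of more than 1 log2 unit could not be told from none for several genes. The genes share the same 8 mice, and the count on one side is therefore not a count of separate observations.

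**Figure D2:**
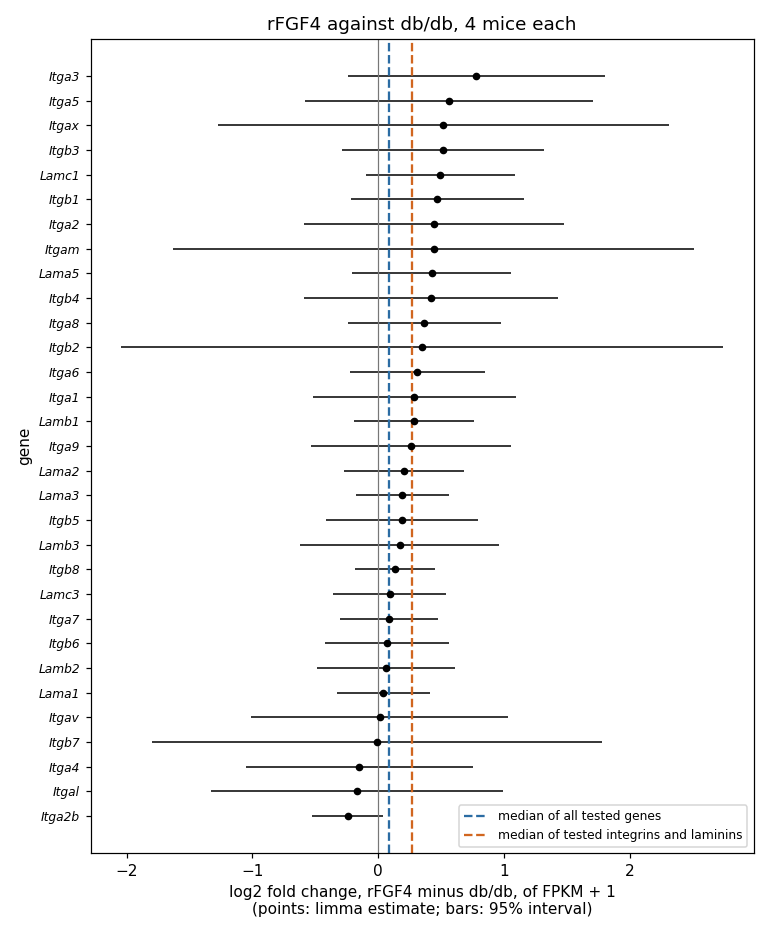
Log2 fold change of FPKM + 1, rFGF4 minus db/db (x axis), of 31 of the 32 tested genes, with points for the limma estimate and bars for its 95% interval. All bars cross 0, and the median of the 32 genes (0.27, orange) lies to the right of that of all tested genes (0.086, blue).

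The highest values came mostly from the same 2 mice. The rFGF4 mouse 1 had the highest value for 23 of the 32 genes (71.9%), against 48.1% of all tested genes, and db/db mouse 5 for 6 of them (18.8%, against 13.4%). Measured from each gene's mean over 8 mice, the median deviation on the log2 scale was 0.87 in rFGF4 mouse 1 and 0.29 in db/db mouse 5, where all tested genes gave 0.28 and 0.11. The other rFGF4 mice stood at 0.24, -0.19 and -0.34, and db/db mice 2, 3 and 4 at -0.35, -0.16 and -0.45. In each of the 8 mice the integrins and laminins deviated in the same direction as the median gene and further from 0. For 16 of 32 genes (50%) the 2 highest mice were rFGF4 mouse 1 and db/db mouse 5, against 31.97% of all tested genes.

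**Figure D3:**
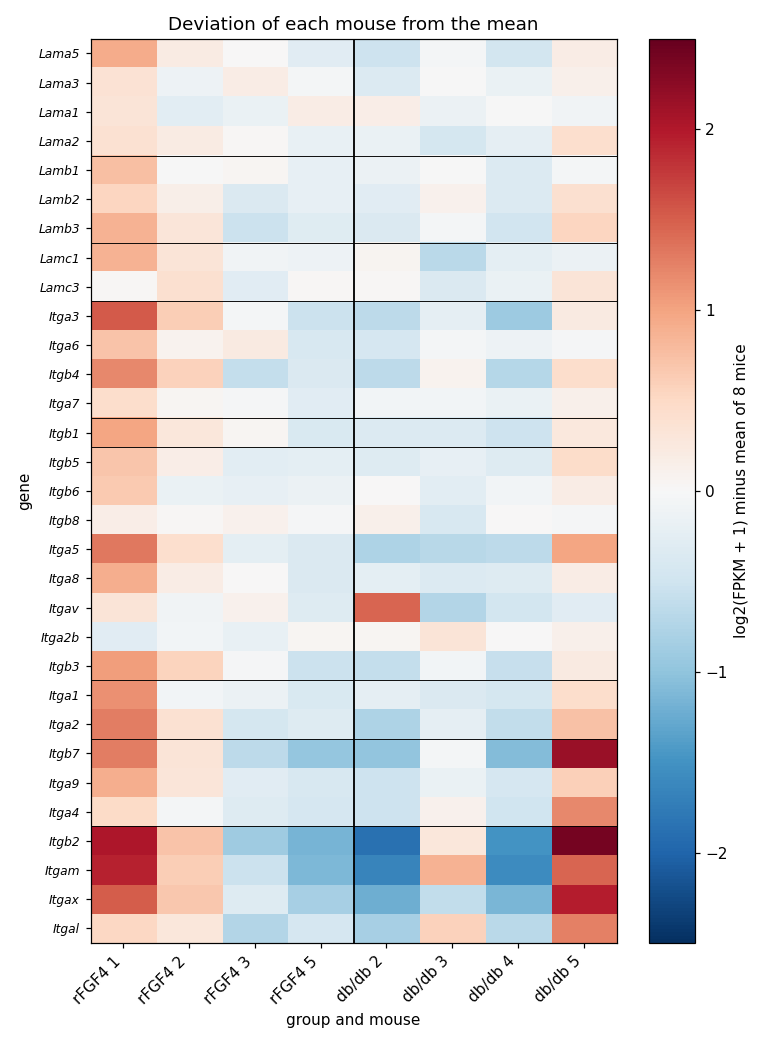
Difference of log2(FPKM + 1) from the mean of 8 mice for 31 of the 32 tested genes (rows, grouped by role) in each mouse (columns, rFGF4 left of the line and db/db right of it). The column of rFGF4 mouse 1 is red in nearly every row, and that of db/db mouse 5 is darkest among the leukocyte subunits and Itgb7.

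Markers of several, but not all, cell types moved with these mice. The summed FPKM of 6 proximal tubule markers was 247 in rFGF4 mouse 1 and 776 to 1109 in the other rFGF4 mice. In db/db mice 2, 3, 4 and 5 it was 1030, 728, 1237 and 708. Leukocyte markers without the immunoglobulin gene Igkc summed to 868, 282, 72.4 and 59.4 in rFGF4 mice 1, 2, 3 and 5 and to 27.2, 239, 39.7 and 1417 in db/db mice 2, 3, 4 and 5. Fibroblast markers likewise peaked in rFGF4 mouse 1 (84.5) and db/db mouse 5 (103), with 8.42 to 38.1 in the other 6. Endothelial and smooth muscle markers were highest in db/db mouse 5 (50.2 and 104), but rFGF4 mouse 1 was not the highest of its group. Endothelial markers summed to 33.4 in rFGF4 mouse 1 and 40.7 in rFGF4 mouse 5. Smooth muscle markers summed to 52.8 in rFGF4 mouse 1 and 57.5 in rFGF4 mouse 2. Red blood cell markers, the globin genes and Alas2, summed to 120, 1556, 437 and 2657 FPKM in the rFGF4 mice and to 3793, 4325, 2700.4 and 1139 in the db/db mice. They were lowest within their groups in rFGF4 mouse 1 and db/db mouse 5. The median log2 fold change of these 5 markers was -1.97, with 5 of 5 below 0 and 0 with an unadjusted limma p under 0.05. Transcripts of the mitochondrial genome made up 19.0% of the summed FPKM in rFGF4 mouse 1, 24.4% in db/db mouse 5, and up to 38.4% elsewhere. Kidney identity was clear in every library, with the proximal tubule transporter Slc34a1 at 136 to 824 FPKM and Umod of the thick ascending limb at 654 to 1213. The part of these shifts in the integrin and laminin values was not tested.

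Itgb1, the beta subunit shared by the matrix receptors of epithelial, mesangial and vascular cells, was the most abundant member. In the rFGF4 mice 1, 2, 3 and 5 it read 111, 67.6, 57.7 and 42.1 FPKM, and in the db/db mice 2, 3, 4 and 5 it read 43.4, 43.8, 38.4 and 67.0. Mice 1, 2 and 3 of the rFGF4 group lay above 3 of the db/db mice, db/db mouse 5 lay level with rFGF4 mouse 2, and rFGF4 mouse 5 lay among the lower db/db values. Group means were 69.7 ± 29.7 and 48.1 ± 12.8 FPKM (SD, n = 4 each), and the log2 fold change was 0.47 ± 0.30 (SE; limma adjusted p = 0.918).

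The laminin-binding subunits held the gene with the highest fold change of all 32. This was Itga3 (chromosome 11, 95044474 to 95076801, GRCm38), the alpha chain of the podocyte laminin receptor. Its values were 39.1, 20.1, 12.4 and 8.46 FPKM in the rFGF4 mice and 7.75, 10.8, 6.38 and 15.2 in the db/db mice. The 2 highest mice were both treated, yet the lowest treated mouse lay below 2 of the 4 db/db mice. The log2 fold change was 0.78 (95% interval -0.24 to 1.80, limma adjusted p = 0.918, exact permutation p = 0.171). It was 0.40 without rFGF4 mouse 1 and 1.09 without rFGF4 mouse 5. Podocyte markers summed to 106, 92.3, 84.0 and 68.3 FPKM in the rFGF4 mice and to 48.5, 91.7, 60.2 and 88.0 in the db/db mice, and the same 2 mice were highest, and the same 2 lowest, for Itga3 and for these markers. Of the 6 podocyte markers all had a fold change above 0, against 67.1% of all tested genes, and 1 of the 6 was called higher, against 3.56%. This was Synpo, which encodes the actin-bundling protein synaptopodin, with an unadjusted p under 0.05 (log2 fold change 0.87, limma adjusted p = 0.918).

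Itga6, which pairs with beta1 or beta4 on tubular and collecting duct epithelium, read 7.28, 4.31, 4.87 and 2.80 FPKM under rFGF4 and 2.74, 3.89, 3.61 and 3.92 in db/db. Mice 1, 2 and 3 under rFGF4 exceeded every db/db mouse and the other lay next to the lowest, with a log2 fold change of 0.31 ± 0.23 (SE; limma adjusted p = 0.920). Itgb4, the hemidesmosome subunit, ranged 7.42-fold over the 8 mice, from 0.769 to 5.71 FPKM, and Itga7 2.11-fold, from 1.46 to 3.08 FPKM. All 4 laminin-binding subunits had fold changes above 0.

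Among receptors that bind the RGD sequence and their partner beta subunits, the beta chains of epithelium, Itgb5, Itgb6 and Itgb8, varied least, with ranges of 1.57-fold to 2.07-fold over the 8 mice. Itgb8, which with alphav releases active TGF-beta from its latent complex, read 6.82, 6.12, 6.57 and 5.87 FPKM under rFGF4 and 6.69, 4.33, 6.10 and 5.83 in db/db. This was the narrowest range of any tested member, 1.57-fold, with a log2 fold change of 0.14 (95% interval -0.18 to 0.45). Itgb6, the partner of alphav in tubular epithelium, read 10.1, 5.27, 5.11 and 5.40 against 6.13, 4.89, 5.69 and 7.00 FPKM. Apart from rFGF4 mouse 1 the treated mice lay within the db/db range, and the log2 fold change was 0.070 ± 0.21 (SE). Itgb5 ranged from 28.9 to 59.8 FPKM, with rFGF4 mouse 1 and db/db mouse 5 highest.

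Itga8, the nephronectin receptor subunit of mesangial and interstitial cells, read 3.99, 2.02, 1.66 and 1.08 FPKM under rFGF4 and 1.26, 1.10, 1.12 and 2.02 in db/db. Its 4 highest mice, of which db/db mouse 5 and rFGF4 mouse 2 were level at 2.02 FPKM, were also those of the summed mesangial markers (50.2, 39.0, 32.4 and 21.5 FPKM in rFGF4 mouse 1, db/db mouse 5, rFGF4 mouse 2 and rFGF4 mouse 3). The other 4 mice were in another order, with rFGF4 mouse 5 lowest for Itga8 and db/db mouse 4 lowest for the markers. Of the 4 mesangial markers only Pdgfrb had the same 4 highest mice as Itga8. It read 27.5, 15.8 and 10.8 FPKM in rFGF4 mice 1, 2 and 3 and 17.3 in db/db mouse 5. Gata3 was highest in db/db mouse 3, at 6.07 FPKM, and Serpine2 and Des placed that mouse above rFGF4 mouse 3. The log2 fold change of Itga8 was 0.37 ± 0.27 (SE). Npnt, which encodes nephronectin itself, read 17.2, 18.5, 15.9 and 22.1 FPKM under rFGF4 and 22.6, 21.8, 22.2 and 24.2 in db/db. Its log2 fold change had the opposite sign, -0.30, with an unadjusted limma p of 0.0401 and an adjusted p of 0.918. Only rFGF4 mouse 5 reached the db/db values.

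Itgav, the alpha chain of the RGD receptors that pairs with beta3, beta5, beta6 and beta8, read 1.89, 1.17, 1.49 and 0.841 FPKM under rFGF4 and 5.30, 0.384, 0.684 and 0.901 in db/db. A single library, db/db mouse 2, held the highest value, and the other 3 db/db mice lay below 3 of the 4 treated mice. With all 8 mice the log2 fold change was 0.011 ± 0.45 (SE), and without db/db mouse 2 it was 0.50, with an unadjusted limma p of 0.0366 and an adjusted p of 0.999. It was then the single member with such a p, where 3.29% of all tested genes had one. That mouse was the lowest for 12 of the 32 genes and the highest for Itgav alone. Itga5, the fibronectin receptor subunit, spanned 1.43 to 9.39 FPKM, and Itgb3 spanned 0.144 to 2.56 FPKM.

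Itga2b, the platelet fibrinogen receptor subunit, had the lowest fold change. It read 0.732, 0.992, 0.846 and 1.15 FPKM under rFGF4 and 1.15, 1.60, 1.09 and 1.297 in db/db, so that 3 treated mice lay below every db/db mouse and rFGF4 mouse 5 lay within the db/db range. The log2 fold change was -0.24 (95% interval -0.53 to 0.038), with the smallest p of the members (unadjusted limma p = 0.0814, adjusted p = 0.918, exact permutation p = 0.0857). It was also the only tested member with its lowest value in rFGF4 mouse 1. The 5 platelet and megakaryocyte markers were low, with sums of 1.5 to 6.80 FPKM under rFGF4 and 1.38 to 11.5 in db/db, and Gp9 was at the floor in 2 db/db mice.

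Of the collagen-binding subunits, Itga1 ranged from 2.94 to 10.9 FPKM and Itga2 from 0.1004 to 3.56 FPKM, both highest in rFGF4 mouse 1. Itga10 and Itga11 stayed at or below 0.392 FPKM in all mice. In the alpha4 and alpha9 group, which binds VCAM-1 and related ligands, Itgb7 reached 11.97 FPKM in db/db mouse 5 and 6.02 in rFGF4 mouse 1 with 0.366 to 2.63 in the others, Itga4 reached 2.71 and 1.24 in the same mice, and Itga9 ranged from 0.981 to 4.30.

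The leukocyte subunits had the widest ranges of any role by their median, 44.0-fold between the highest and the lowest mouse. Itgb2, the beta chain common to the leukocyte integrins, read 24.7, 9.36, 2.45 and 1.85 FPKM in the rFGF4 mice and 0.730, 6.75, 1.25 and 32.1 in the db/db mice. The db/db mice spanned the whole range and the treated mice lay inside it, and the 8 mice fell in the order of the summed leukocyte markers without Igkc. Most of that sum was a single gene, Lyz2, at 771 FPKM in rFGF4 mouse 1 and 1269 in db/db mouse 5, and Ptprc, the leukocyte marker CD45, placed the lower mice differently. With Igkc in the sum, 2 of the 8 mice kept the same place. The log2 fold change was 0.35 ± 1.04 (SE; limma adjusted p = 0.970).

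Itgam, the alpha chain of the complement receptor on neutrophils and macrophages, read 12.2, 4.31, 1.39 and 0.588 FPKM against 0.105, 5.37, 0.174 and 8.54. Its 117-fold range was the widest of the tested members. Its log2 fold change was 0.44 ± 0.90 (SE). Annotated exons of another gene, Gm49368, cover 68.7% of the exon bases of Itgam, so reads could be divided between them and the level of Itgam is uncertain. Itgal, the alpha chain of the lymphocyte receptor LFA-1, read 2.16, 1.68, 0.322 and 0.637 against 0.238, 2.27, 0.370 and 4.27 FPKM, with a log2 fold change of -0.17 ± 0.50 (SE). Itgax, found on dendritic cells and some macrophages, ran from 0.190 to 9.78 FPKM. Itgb2, Itgam, Itgax, Itgb7 and Itga4 had the same 2 highest and the same 2 lowest mice as the leukocyte markers without Igkc, whereas Itgal and Itgae differed from them at both ends. The B cell marker Ms4a1 was at the floor in 3 libraries and highest in db/db mouse 5, at 1.88 FPKM.

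**Figure D4:**
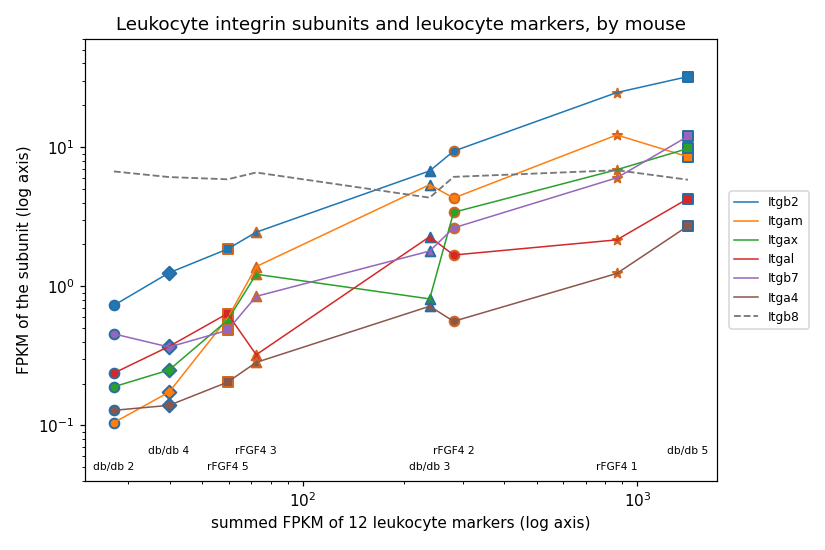
FPKM of 6 leukocyte and alpha4 or beta7 subunits (y axis, log) against the summed FPKM of 12 leukocyte markers without Igkc (x axis, log) in 8 mice, with symbols by mouse number, outlines in orange for rFGF4 and blue for db/db, and epithelial Itgb8 as a dashed line for comparison. Itgb2 rises with every step in the marker sum from db/db mouse 2 (0.730 FPKM) to db/db mouse 5 (32.1 FPKM), and Itgb8 stays between 4.33 and 6.82 FPKM.

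Lama5, the alpha chain of the mature glomerular and tubular basement membrane, read 28.8, 17.2, 14.7 and 11.9 FPKM under rFGF4 and 9.93, 14.2, 10.5 and 16.8 in db/db. Treated mice 1 and 2 were above every db/db mouse and mouse 5 was within the db/db values. The means were 18.1 ± 7.42 and 12.9 ± 3.25 FPKM (SD, n = 4 each), with a log2 fold change of 0.42 ± 0.28 (SE; limma adjusted p = 0.918).

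Lama1, the alpha chain of the developing basement membrane, read 2.40, 1.28, 1.45 and 2.12 against 2.07, 1.48, 1.72 and 1.57 FPKM. The db/db mice lay within the wider range of the treated mice, and the log2 fold change was 0.040 ± 0.16 (SE). Lama2, an alpha chain of mesangial matrix and muscle, read 1.17, 0.919, 0.713 and 0.463 against 0.484, 0.238, 0.427 and 1.25 FPKM. Only db/db mouse 5 among the controls lay above 0.5 FPKM, and the log2 fold change was 0.21 ± 0.21 (SE). Lama3 ranged from 1.87 to 3.67 FPKM, and Lama4, not tested, from 0.165 to 0.913.

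Lamb2, the beta chain of the mature glomerular basement membrane, read 16.2, 12.2, 8.28 and 9.37 FPKM under rFGF4 and 8.80, 11.8, 8.42 and 14.7 in db/db. The groups lay over each other, with a log2 fold change of 0.061 (95% interval -0.49 to 0.61). Lamb1, the beta chain of developing glomeruli and adult tubular and mesangial matrix, was at 12.5 to 16.8 FPKM in all mice except rFGF4 mouse 1, at 28.0. The ratio of Lamb2 to Lamb1 within a library, chosen after the values were seen, was 0.627 ± 0.115 under rFGF4 and 0.737 ± 0.146 in db/db (SD, n = 4 each, two-sided exact permutation p = 0.343). Of 3 such ratios, Lama1 to Lama5 and Itga3 to Itgb1 gave exact permutation p of 0.286 and 0.20, and each was 0.343 after Benjamini-Hochberg adjustment over the 3. Lamb3 ranged from 0.365 to 2.66 FPKM.

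Lamc1, the gamma chain of nearly all kidney laminins, had the smallest p of the laminin chains. It read 9.61, 6.27, 4.43 and 4.32 FPKM under rFGF4 and 5.11, 2.62, 3.92 and 4.22 in db/db. Every treated mouse lay above 3 of the 4 db/db mice, and db/db mouse 2 lay above 2 of the treated ones. The log2 fold change was 0.49 (95% interval -0.099 to 1.08, unadjusted limma p = 0.0913, adjusted p = 0.918, exact permutation p = 0.143). Lamc3 ranged from 0.744 to 1.97 FPKM.

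Summed within a library, the 11 laminin chains reached 69.5 ± 25.6 FPKM under rFGF4 and 53.8 ± 9.97 in db/db, the 18 alpha subunits 55.5 ± 36.8 and 39.2 ± 22.4, and the 8 beta subunits 139 ± 62.1 and 111 ± 45.4 (SD, n = 4 each). Each difference of means was smaller than the SD of the rFGF4 group. The 16 tested genes whose fold change is not given singly had log2 fold changes of -0.15 to 0.56, 14 of them above 0, with unadjusted limma p of 0.179 to 0.989.

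Genes that act with integrins and laminins were counted in the same fit. In a list of 28 focal adhesion and integrin activation genes, all tested, 23 had fold changes above 0 (median 0.23) and 2 had an unadjusted p under 0.05, both higher under rFGF4 (7.14%, against 3.56% of all tested genes). These were Pxn, the adaptor paxillin, at 12.95, 9.72, 13.5 and 7.35 FPKM against 7.04, 6.68, 6.71 and 7.89 (log2 fold change 0.52, limma adjusted p = 0.918), and Parva, the ILK partner alpha-parvin, at 19.999, 15.1, 16.1 and 13.4 against 11.95, 11.8, 10.6 and 13.8 (log2 fold change 0.39, limma adjusted p = 0.918). For both genes rFGF4 mouse 5 lay below db/db mouse 5 and the other treated mice lay above every db/db mouse. In this list 1 gene of 28, Tns2, the podocyte focal adhesion protein tensin 2, had groups that did not overlap, at 20.5, 21.5, 19.3 and 19.5 FPKM under rFGF4 and 19.0, 17.0, 13.3 and 18.4 in db/db (log2 fold change 0.25, limma adjusted p = 0.918). Over all tested genes 2.66% had such groups with rFGF4 above, and Tns2 was named after its values were seen.

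Of 20 other basement membrane genes, such as the collagen IV chains and nidogens, 17 were tested, 11 had fold changes above 0 (median 0.16) and 0 had an unadjusted limma p under 0.05. The 7 non-integrin laminin receptors, such as dystroglycan, gave 6 above 0 (median 0.20) and 0 with such a p. Of 16 integrin ligands outside the laminins and collagens, 13 were tested, 11 had fold changes above 0 (median 0.61) and 2 had an unadjusted p under 0.05, both lower under rFGF4 (15.38%, against 1.06% of all tested genes). Beside Npnt this was Icam2, an endothelial ligand of the leukocyte integrins, at 1.99, 2.30, 2.06 and 3.27 FPKM against 2.96, 3.57, 2.91 and 3.95 (log2 fold change -0.36, limma adjusted p = 0.918). Of 7 endothelial markers 1 had a fold change above 0 (median -0.18), where 67.1% of all tested genes did. Among the 7, 1 had an unadjusted limma p under 0.05 and was lower under rFGF4 (14.29%, against 1.06% of all tested genes). This was Tek, the angiopoietin receptor, with a log2 fold change of -0.38, an unadjusted limma p of 0.0424 and an adjusted p of 0.918. The part of the endothelial markers in the Icam2 value was not tested. The median over all tested genes was 0.086.

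Leaving out single mice moved these values. The median log2 fold change of the 32 genes was 0.082 without rFGF4 mouse 1 (17 of 32 above 0) and 0.43 without db/db mouse 5 (30 of 32 above 0), while the median of all tested genes was 0.010 and 0.15. Without rFGF4 mouse 5, 4 members had an unadjusted limma p under 0.05, namely Itga3 (log2 fold change 1.09), Itgb3 (0.78), Itgb1 (0.68) and Itga6 (0.50), which is 12.5% of the members against 9.44% of all tested genes in that fit. Without db/db mouse 5 there were 2, Itga5 (0.99) and Itgax (1.25), or 6.25% against 6.51% of all tested genes. Itga5, Itgax and Itgb3 were named after their values were seen. All had adjusted p of 0.514 or above. With rFGF4 mouse 1 and db/db mouse 5 both left out, 28 of 32 fold changes were above 0 with a median of 0.23, and Itga5 (0.64) alone had an unadjusted p under 0.05, against 5.68% of all tested genes. After scaling of the libraries to one median ratio, the median of the members was 0.16 with 23 of 32 above 0, that of all genes -0.011, and the share of threshold calls that were higher under rFGF4 fell from 71.4% to 53.4%.

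**Figure D5:**
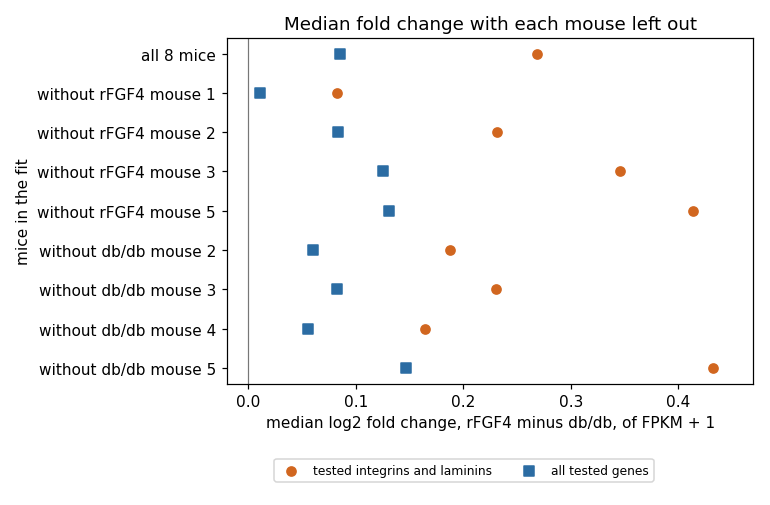
Median log2 fold change of FPKM + 1, rFGF4 minus db/db (x axis), of the 32 tested integrin and laminin genes (orange) and of all 15150 tested genes (blue) with all 8 mice and with each mouse left out (y axis). The orange point stays right of the blue one in each fit and lies lowest, at 0.082, without rFGF4 mouse 1.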

How the data were processed

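Poly(A) RNA from kidney of 8 mice (the labels say kidney, while the study's RNA isolation for qPCR names the renal cortex) was sequenced in paired-end mode on an Illumina instrument, for which the labels and the methods give different models. The authors assembled transcripts with StringTie, merged them with gffcompare and deposited FPKM per gene, with 0.0001 in place of 0. The submitters' processing notes list Bowtie 0.12.2, HISAT2 2.0, StringTie 1.3.0 and mm8, without their roles. The deposited table also holds the authors' own edgeR comparison (fold change, its log2, p, q, direction and call), which was not used. It holds no counts, so depth is unknown and no counting interval was calculated. The most frequent ratio among genes of low value gave a rough depth relative to db/db mouse 2 of 0.901 to 1.13. Only 88 to 120 of 2598 to 3351 such genes per library lay at that ratio, so this is not a measured depth. Summed FPKM was 389407 to 552604 per library. FPKM shares one total per library, so an abundant class, such as mitochondrial transcripts, changes the values of all other genes.

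Genes at 0.5 FPKM or more in at least 4 libraries (15150) were compared as log2(FPKM + 1) with limma 3.58.1 (R 4.3.3) (eBayes, intensity trend on). P-values were adjusted over all of them after Benjamini and Hochberg. The pseudocount makes fold changes of low genes too small. Single genes and ratios were compared by two-sided exact permutation over 70 splits of the mice. Positions came from GENCODE M21 on GRCm38, matched by identifier (55141 of 55401, and all 37 members), and promoters from RefSeq on GRCm38.p6. Per-mouse values are given for members with an unadjusted p under 0.05 or without overlap, for the glomerular laminin and its receptor, for representatives of each role, and for the highest and lowest fold change. The values of 1 tested member and 1 marker are not reported here singly, although they stay in the counts, medians and sums. The members and lists were chosen with earlier results of these data known. Exons of 12 members overlap another gene, by over 10% for 3 (Itgam, Itga10 and Itgad). Alternatives were another pseudocount, filter, scaling and prior, array weights, a replicate block and leaving out mice.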

Additional observations from a re-analysis of the deposited data

Results flagged for a closer look

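In 73 sets of 4 mice (each gene in each group), 5 held a mouse far from the other 3, measured as its gap to the nearest mouse divided by the whole range of log2(FPKM + 1). Chance gives such a gap in about 1 of 20 sets, or 3.65 of 73. In the db/db group mouse 5 stood above the others for Itga5 (0.935 of the range), Itgae (0.852) and Itgb5 (0.841). In the rFGF4 group mouse 1 stood above the others for Itgb6 (0.924), and Itgad was above the floor in mouse 2 alone (gap 1 of the range, at 0.00476 FPKM). Markers of leukocytes and fibroblasts were also highest in db/db mouse 5 among the db/db mice, and their part in these values was not tested.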

How the results depend on the processing

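The depth behind each FPKM is unknown, and with 4 mice a group the precision rests on the spread between them. The number of genes past the threshold of the study was 231 and became 348 with a pseudocount of 0.1, 490 with array weights and 54 at a fold change of 2, and ran from 187 (without rFGF4 mouse 2) to 575 (without rFGF4 mouse 5) with single mice left out, with 432 without db/db mouse 5. Members with an unadjusted limma p under 0.05 numbered 3 with array weights (Itga3, 0.84; Itgb1, 0.49; Lama5, 0.44; 9.38%, against 11.99% of all tested genes), 0 to 4 with single mice left out (1 without db/db mouse 2, Itgav) and 1 with rFGF4 mouse 1 and db/db mouse 5 both left out, a setting chosen after seeing the data. An adjusted p under 0.05 was reached by 1 gene with no filter on low values and by 1 without db/db mouse 2, 4 or 5 in turn, and by 0 members. The median log2 fold change of the members ran from 0.082 to 0.43 with single mice left out. With the replicate number as a block, on the 6 mice that share numbers 2, 3 and 5, this median was -0.069. In that fit 14 of 32 members were above 0, the median of all tested genes was -0.019, and 263 genes passed the threshold. The block estimates equal those of the same 6 mice without it, so the turn in sign comes with the loss of rFGF4 mouse 1 and db/db mouse 4. Same-numbered mice deviated in opposite directions (r = -0.23, -0.16 and -0.39), and the numbers were not taken as pairs. Of the 16 members with a fold change given singly, 9 kept their direction in each setting, but without rFGF4 mouse 1 Itga3 was 0.40, Lamc1 0.28, Itgb1 0.22, Lama5 0.19, Itga8 0.13, Itga6 0.12 and Lama2 0.11, and on the 6 mice of the block Itga3 was 0.23 and Itgb1 0.12. Itgb8 ran from 0.028 to 0.20 with single mice left out. The other 7, none past the test, turned under the block (Itgam -0.58, Itgb2 -0.71, Itgav -0.24, Lamb2 -0.21, Itgb6 -0.15, Lama1 -0.055), with a common median ratio (Itgav -0.072, Lamb2 -0.059, Lama1 -0.047, Itgb6 -0.045), with array weights (Itgav -0.20, Lama1 -0.13, Itgb6 -0.070, Itgal 0.20) or without rFGF4 mouse 1 and db/db mouse 5 (Itgav -0.19, Lama1 -0.082, Itgb6 -0.066, Itgal 0.021). With single mice left out the range was -0.47 to 0.22 for Itgal, -0.13 to 1.0 for Itgam, -0.23 to 0.50 for Itgav, -0.27 to 1.2 for Itgb2, -0.14 to 0.15 for Itgb6, -0.058 to 0.13 for Lama1 and -0.11 to 0.20 for Lamb2. The cause of these turns was not tested.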
